A study of Mus musculus with 18 samples.

Results

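Thy1, Pdgfrb, Fap, Prrx1, Postn, Fn1, Loxl1, Acta2, Tagln and S100a4 are 10 genes that mark mouse fibroblasts. They were taken by name from the 55469 genes compared, with earlier results of these data known. Their expression in RNA-Seq was followed in 18 libraries to ask how much of the fibroblast programme was detected in pluripotent cells kept by the OSKM factors (Oct4, Sox2, Klf4 and c-Myc). All cells except the feeders carried a polycistronic OSKM cassette in the Col1a1 locus and the M2rtTA transactivator in Rosa26, so that doxycycline (DOX) switched the factors on. OSKM-ESCs were cells of a single Tet-On-OSKM/Oct4-GFP embryonic stem cell line, from a cross of (C57BL/6 x 129S4/SvJae)F1 with (CBA/CaJ X C57BL/6J)F2 mice, moved from 2iL to N2B27 with DOX and collected at days 18, 25 and 38, with 2 cultures a day. 2iL-ESCs were the same line left in 2iL, which is N2B27 with the MEK inhibitor PD0325901, a GSK3 inhibitor and LIF, with 2 cultures at each of these days. OSKM-iPSCs were clones 1 and 3, at passages 7 and 6, reprogrammed from Tet-On-OSKM MEF cells and cultured in N2B27 with DOX. 2iL-iPSCs were clones 3 and 6, at passages 2 and 3, reprogrammed in 2iL with DOX. For the culture of these clones afterwards the labels give N2B27 with DOX and the methods give 2iL with DOX withdrawn. The MEF group was 2 libraries of Tet-On-OSKM mouse embryonic fibroblasts of strain (C57BL/6 x 129S4/SvJae)F1 at passage 4, the cells from which the iPSCs were made, in DMEM with 10% FBS. Medium, DOX and OSKM expression change together between OSKM-ESCs and 2iL-ESCs and cannot be told apart. What the iPSC groups differed in at collection is not settled by these sources.

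Fibroblasts of the embryo build and remodel the matrix between tissues. They are recognised by surface proteins, by mesenchymal transcription factors, by secreted matrix proteins and, when they are under tension in culture, by the actin-based contractile machinery of myofibroblasts. Reprogramming to pluripotency silences this programme, and pluripotent cells are often grown on a layer of inactivated MEF cells, so a fibroblast transcript in such a culture can come from the pluripotent cells, from cells that left the pluripotent state, from incompletely reprogrammed cells or from feeders. The methods describe mitomycin-c treated MEF cells as the layer on which the ESC line was kept and on which MEF cells were seeded for reprogramming. Feeder cells were not analysed here as a library of their own. In bulk RNA a smaller number of fibroblasts and less RNA of a gene per cell cannot be told apart. Each level was therefore also expressed as a percent of the MEF mean, because a plain admixture of cells like these MEF libraries would give every gene absent from pluripotent cells the same percent.

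The 2 MEF libraries fitted their label. The summed FPKM (fragments per kilobase of transcript, scaled to the mapped fragments of the library) of 30 other fibroblast genes was 11327 to 11527 in MEF cells and 314 to 1239 in all pluripotent libraries, and that of 8 pluripotency genes was 1.15 to 2.06 in MEF cells and 1046 to 3332 elsewhere. Between 11303 and 12095 genes exceeded an FPKM of 1 per library, and the mean read coverage of a gene per unit of its FPKM had a median between 2.72 and 3.31, so libraries were of like depth, although the number of reads is unknown. The OSKM-iPSC clones stood apart from each other before any comparison. Clone 1 had a summed level of 1239 FPKM over the 30 other fibroblast genes and clone 3 had 314 FPKM, and 28 of these 30 genes were higher in clone 1, against 50.7% of 12874 genes with an FPKM over 1 in a clone. The levels in OSKM-iPSCs are therefore given for each clone. Replicates of a day were separate libraries of 1 line, and the p-values measure the spread between them only.

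The 250 bases before the annotated start are shown for Acta2, Postn, S100a4 and Prrx1, the 4 genes present in the RefSeq promoter table used here (GRCm38.p6). All 4 were highest at day 18 in OSKM-ESCs, with different courses after day 25, and Prrx1 is the transcription factor of the set. The windows are written 5′ to 3′ on the strand of the gene. Capitals mark CArG-like boxes (the site of serum response factor, with at most 1 mismatch in the middle run), the TATA box (TATAAA) and the TEAD motif (CATTCC, here on the opposite strand). The relaxed form of the CArG box was searched after the Acta2 window had been seen to hold no full match.
Acta2 promoter, chr19:34255374-34255623, minus strand: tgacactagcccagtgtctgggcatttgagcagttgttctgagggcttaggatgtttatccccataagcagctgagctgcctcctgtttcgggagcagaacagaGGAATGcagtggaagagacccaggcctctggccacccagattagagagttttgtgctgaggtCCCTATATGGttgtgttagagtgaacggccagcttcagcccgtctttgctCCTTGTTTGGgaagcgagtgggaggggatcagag
Postn promoter, chr3:54360857-54361106, plus strand: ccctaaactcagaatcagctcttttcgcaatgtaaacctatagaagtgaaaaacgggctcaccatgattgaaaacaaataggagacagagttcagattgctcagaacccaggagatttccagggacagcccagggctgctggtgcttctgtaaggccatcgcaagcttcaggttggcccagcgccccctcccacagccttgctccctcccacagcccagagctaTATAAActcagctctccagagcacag
S100a4 promoter, chr3:90603520-90603769, plus strand: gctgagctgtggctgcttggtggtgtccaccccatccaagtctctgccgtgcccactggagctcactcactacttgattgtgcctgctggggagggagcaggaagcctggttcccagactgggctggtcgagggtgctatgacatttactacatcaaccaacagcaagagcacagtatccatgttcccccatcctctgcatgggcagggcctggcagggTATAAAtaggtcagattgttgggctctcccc
Prrx1 promoter, chr1:163313651-163313900, minus strand: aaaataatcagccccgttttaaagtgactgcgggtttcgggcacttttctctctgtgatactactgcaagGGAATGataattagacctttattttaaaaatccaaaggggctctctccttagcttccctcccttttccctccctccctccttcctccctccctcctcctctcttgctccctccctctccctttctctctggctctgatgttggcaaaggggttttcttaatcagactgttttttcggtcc
The Acta2 window held CArG-like boxes at -84 to -75 and at -34 to -25 and a TEAD motif at -146 to -141. Positions are counted from the start in the RefSeq table. Postn and S100a4 each held a TATA box, at -26 to -21 and at -31 to -26. The table has a second Postn start further upstream, and its window (chr3:54359017-54359266) held none of these motifs. The window shown is the one that ends beside the start of Postn in the files. Acta2 and Prrx1 as annotated for the deposited values begin at chr19:34255590 and chr1:163313710, inside the windows shown. Part of these 2 windows thus lies within the genes that were measured. Prrx1 held a TEAD motif at -180 to -175. On either strand, a CArG-like box was found in 8.59% of 32841 promoter windows of this length, a full CArG box in 1.47%, TATAAA in 12.4% and CATTCC in 12.6%. These matches describe letters in the windows and say nothing of binding in these cells.

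**Figure D1:**
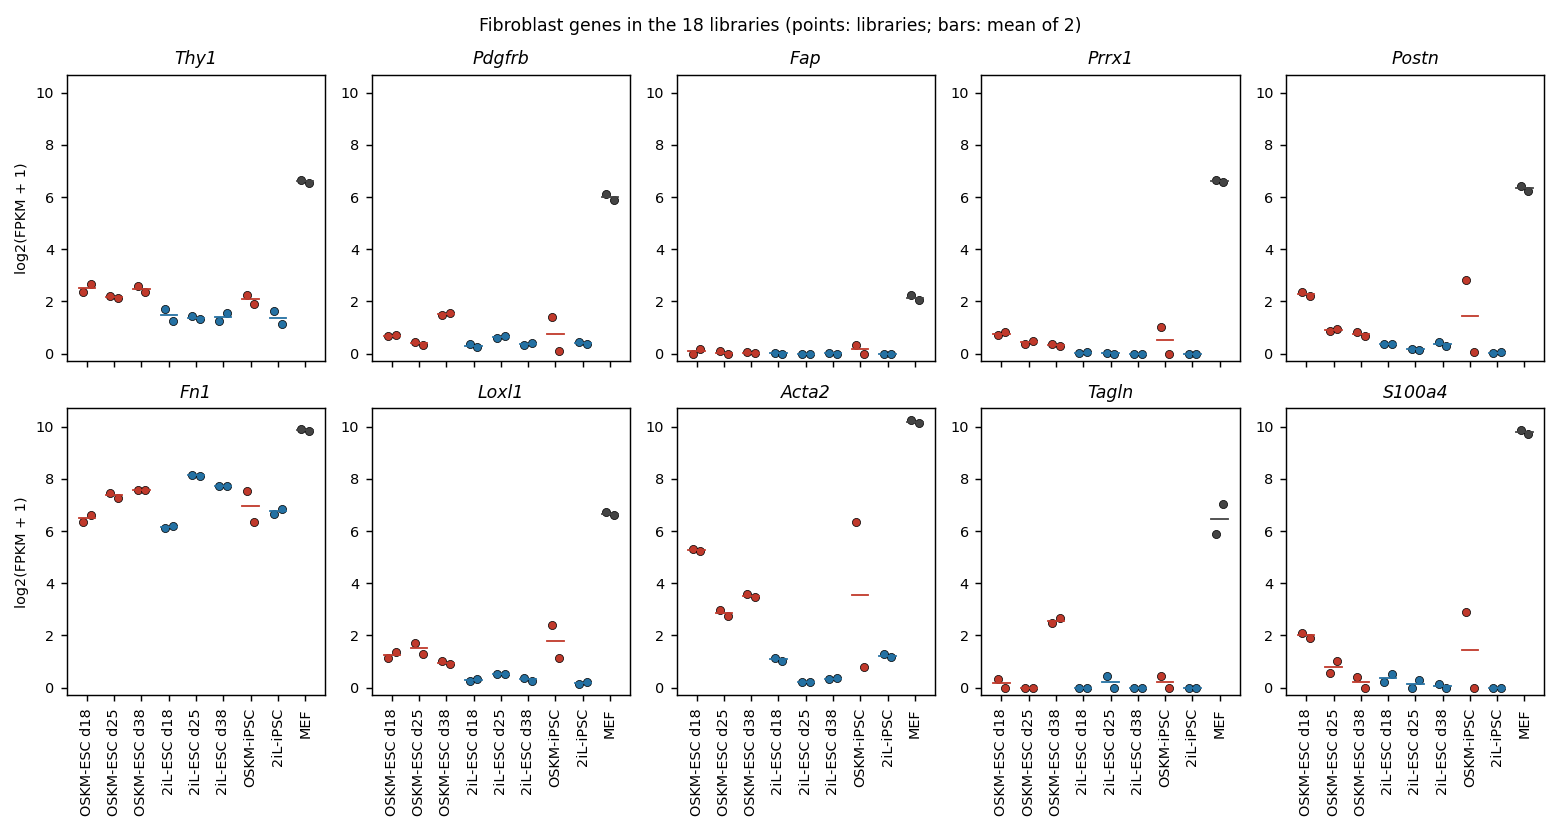
Level of each of the 10 fibroblast genes on the log2(FPKM + 1) scale (vertical axis) in the 9 groups (horizontal axis), with 1 point per library and a bar at the mean of the 2 libraries. The MEF libraries are the highest in every panel, Fn1 is high in every group, and the OSKM-iPSC clones lie apart for most genes.

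The members ranged in MEF cells over a wide span of FPKM. Acta2, smooth muscle α-actin (chr19:34241090-34255590, minus strand, GRCm38), had 1214 and 1129 FPKM in the 2 MEF libraries. Fn1, fibronectin, had 964 and 914 FPKM, and S100a4, a calcium-binding protein also called fibroblast-specific protein, had 931 and 850.1 FPKM. Fap, the fibroblast activation protease, was the lowest at 3.69 and 3.10 FPKM. The MEF libraries differed from each other by at most 1.19-fold for 9 of the 10 genes and by 2.22-fold for Tagln. All 10 genes were lower in OSKM-iPSCs than in MEF cells with limma, where 26.4% of 14210 genes were lower. All 10 were also lower in 2iL-iPSCs, where 37.4% of 14224 genes were lower. The members were named as fibroblast genes. In the comparison with OSKM-iPSCs 2 of them (Fap and Tagln) passed the FPKM minimum only through MEF cells, and 7 in that with 2iL-iPSCs. Both counts are therefore descriptions. In the first of these comparisons the count was 10 without either OSKM-iPSC clone and 9 with a pseudocount of 0.1 or with no filter, where Acta2 did not pass (adjusted p = 0.058 and 0.10). It dropped to 0 when either MEF library was left out, but so did the count over all genes, with 5832 of 14074 and 5877 of 14069 genes at an unadjusted p under 0.05, and the log2 fold changes stayed negative for all 10 members.

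The genes of the cell surface behaved differently from each other. Thy1 (chr9:44043384-44048579), a glycosylphosphatidylinositol-anchored glycoprotein and the classic antigen for sorting MEF cells, had 4.205 and 5.41 FPKM in OSKM-ESCs at day 18, 3.66 and 3.41 at day 25 and 4.97 and 4.15 at day 38. In 2iL-ESCs its lowest, median and highest values over 6 libraries were 1.37, 1.59 and 2.24 FPKM. Every OSKM-ESC library was above every 2iL-ESC library, and no 2iL library was near 0. Over all days Thy1 was higher in OSKM-ESCs by 0.97 on the log2(FPKM + 1) scale (SE 0.11, limma, adjusted p = 1.77e-05), and an exact 2-sided permutation test gave p = 0.0022, the smallest it can give with 6 cultures against 6. Its level did not pass the test for a change between days within OSKM-ESCs (adjusted p = 0.16), nor did the difference between media vary with day (adjusted p = 0.61). At day 18 its call was lost without OSKM-ESC replicate 2 or 2iL-ESC replicate 2 (adjusted p = 0.069 and 0.073), and at day 25 without 2iL-ESC replicate 2 (adjusted p = 0.055).

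Pdgfrb (chr18:61045150-61085061), the β receptor for platelet-derived growth factor, had 0.583 and 0.631 FPKM in OSKM-ESCs at day 18, 0.368 and 0.260 at day 25, and 1.79 and 1.97 at day 38. In 2iL-ESCs it had 0.288 and 0.184 FPKM at day 18, 0.526 and 0.609 at day 25, and 0.250 and 0.314 at day 38. The OSKM cultures were thus above the 2iL cultures at days 18 and 38 and below them at day 25. Only at day 38 did it exceed the FPKM of 1 needed for the test between media, where it was higher by 1.17 (SE 0.12, adjusted p = 0.00079), a 6.69-fold ratio of means. The days differed within OSKM-ESCs (adjusted p = 0.0040), with the mean of day 38 at 6.00-fold that of day 25. Over all days the difference of 0.43 (SE 0.19) did not pass (adjusted p = 0.072), and it passed without OSKM-ESC replicate 2 or 2iL-ESC replicate 2 of day 25 (adjusted p = 0.034 and 0.037).

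Fap (chr2:62500943-62574075) was close to the detection limit outside MEF cells. In OSKM-ESCs it was listed at 0 in 2 of 6 libraries and reached 0.127 FPKM in replicate 2 of day 18. In 2iL-ESCs it was listed at 0 in 4 of 6 libraries and reached 0.018 FPKM. Its mean read coverage was under 1 in every library with a value outside MEF cells, and it never exceeded the FPKM of 1 needed for a test among them. The groups of ESCs overlapped. In OSKM-iPSC clone 1 it had 0.263 FPKM and in clone 3 it was listed at 0.

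Prrx1 (chr1:163245119-163313710, minus strand), a homeobox factor of limb and craniofacial mesenchyme, had 0.634 and 0.759 FPKM in OSKM-ESCs at day 18, 0.295 and 0.414 at day 25, and 0.277 and 0.238 at day 38. In 2iL-ESCs it was listed at 0 in 3 of 6 libraries, and the other values were 0.011, 0.016 and 0.042 FPKM. The OSKM-ESC libraries were all above the 2iL-ESC libraries, at less than 1% of the MEF mean of 97.7 FPKM. No library of ESCs exceeded 1 FPKM, so Prrx1 was left out of the fit. The exact 2-sided permutation test over all days gave p = 0.0022.

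The matrix genes gave 3 different patterns. Postn (chr3:54361109-54391037), periostin, a secreted matricellular protein that binds collagen, had 4.14 and 3.57 FPKM in OSKM-ESCs at day 18, 0.803 and 0.941 at day 25, and 0.769 and 0.612 at day 38. Its lowest, median and highest values in 2iL-ESCs were 0.104, 0.248 and 0.357 FPKM. No OSKM-ESC library overlapped with a 2iL-ESC library, and the day 18 cultures were far above the later ones. At day 18 Postn was higher than in 2iL-ESCs by 1.92 (SE 0.15, adjusted p = 0.00016), at days 25 and 38 it was under the minimum for the test, and over all days it was higher by 1.02 (SE 0.21, adjusted p = 0.0014, exact permutation p = 0.0022). The days differed within OSKM-ESCs (adjusted p = 0.0010). The mean of day 18 was 4.42-fold that of day 25.

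Loxl1 (chr9:58287738-58313186, minus strand), a lysyl oxidase that cross-links elastin, kept to a narrower range. It had 1.22 and 1.60 FPKM in OSKM-ESCs at day 18, 2.28 and 1.45 at day 25, and 1.03 and 0.852 at day 38. In 2iL-ESCs its lowest, median and highest values were 0.190, 0.272 and 0.442 FPKM. All OSKM-ESC libraries were above all 2iL-ESC libraries, and the order of the days was not that of Postn. Loxl1 was higher in OSKM-ESCs over all days by 0.87 (SE 0.11, adjusted p = 3.30e-05, exact permutation p = 0.0022), and a change between days did not pass (adjusted p = 0.11). The day 25 call was lost without either 2iL-ESC library (adjusted p = 0.054 and 0.051), and the day 38 call in the single fit of 9 groups (adjusted p = 0.098).

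Fn1 (chr1:71585520-71653200, minus strand), which links cells to collagen through integrins, was the member that pluripotent cells expressed at a high level in every group. OSKM-ESCs had 79.7 and 98.3 FPKM at day 18, 176 and 155 at day 25, and 192 and 189 at day 38. The 2iL-ESCs had 68.0 and 71.5 FPKM at day 18, 282 and 277 at day 25, and 211 and 214 at day 38. Both media thus had their lowest Fn1 level at day 18, and the OSKM cultures were above the 2iL cultures on that day and below them on the later days. At day 25 Fn1 was lower in OSKM-ESCs by 0.76 on the log2 scale (log2 fold change -0.76, SE 0.09, adjusted p = 0.0023). At day 38 the difference was -0.16 (SE 0.03, adjusted p = 0.011), a call lost under several other settings, and at day 18 it was 0.34 (SE 0.13, adjusted p = 0.083), which passed without OSKM-ESC replicate 1 (adjusted p = 0.038). The difference between media varied with day (adjusted p = 0.00095). A shared annotation with the antisense gene Apol7d covered 2.5% of the exonic bases of Fn1.

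Acta2, a contractile gene, showed the largest difference of the tested members on the log2(FPKM + 1) scale, with Tagln read alone. OSKM-ESCs had 38.3 and 36.8 FPKM at day 18, 6.82 and 5.68 at day 25, and 10.98 and 10.1 at day 38. The 2iL-ESCs had 1.204 and 1.02 FPKM at day 18, 0.147 and 0.152 at day 25, and 0.260 and 0.282 at day 38. Even the lowest OSKM-ESC culture was above the highest 2iL-ESC culture, and day 18 was the highest day in both media. Acta2 was higher in OSKM-ESCs by 4.19 at day 18 (SE 0.12, adjusted p = 1.36e-05), by 2.65 at day 25 (SE 0.14, adjusted p = 0.00021) and by 3.18 at day 38 (SE 0.10, adjusted p = 2.04e-05). The ratios of means were 33.7-fold, 41.8-fold and 38.9-fold, closer to each other than the log2(FPKM + 1) differences, which understate changes of low values. Over all days the difference was 3.34 (SE 0.20, adjusted p = 9.34e-08, exact permutation p = 0.0022). Within OSKM-ESCs the days differed (adjusted p = 0.00012), and the day 18 mean was 6.01-fold that of day 25. The day 25 call was lost in a single fit of all 9 groups (adjusted p = 0.071).

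Tagln (chr9:45929619-45936058, minus strand), transgelin, an actin-binding protein of smooth muscle, could not be measured reliably. The library kit does not mark strand, and the annotated antisense gene Gm48529 covers 1241 bases (62.4%) of the exonic bases of Tagln. A further 108 bases (5.43%) lie under exons of Pcsk7. Tagln was listed at 58.4 and 130 FPKM in the MEF libraries, while Gm48529 was listed at 560.0 and 519 FPKM in the same libraries. In OSKM-ESCs Tagln was 0.241 and 0 FPKM at day 18, 0 in both libraries at day 25, and 4.56 and 5.32 FPKM at day 38. Read alone, it was seen in both OSKM-ESC cultures of 1 day only, and it was higher at day 38 by 2.57 (SE 0.12, adjusted p = 6.09e-05) against 2iL libraries listed at 0.

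The sum of Tagln and Gm48529, an alternative chosen after the values were seen, gave another time course. It was 86.6 and 81.3 FPKM in OSKM-ESCs at day 18, 25.0 and 20.9 at day 25, and 62.1 and 40.1 at day 38. In 2iL-ESCs it lay between 0.628 and 2.38 FPKM. With the sum, all OSKM-ESC libraries were above all 2iL-ESC libraries, day 18 was the highest and the difference over all days was 4.43 (SE 0.18, adjusted p = 4.66e-09, exact permutation p = 0.0022). Tagln took 0% to 13.2% of the sum in OSKM-ESCs and 9.44% and 20.02% in the MEF libraries, so its share was not constant. How the fragments were divided between the genes was not tested.

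**Figure D2:**
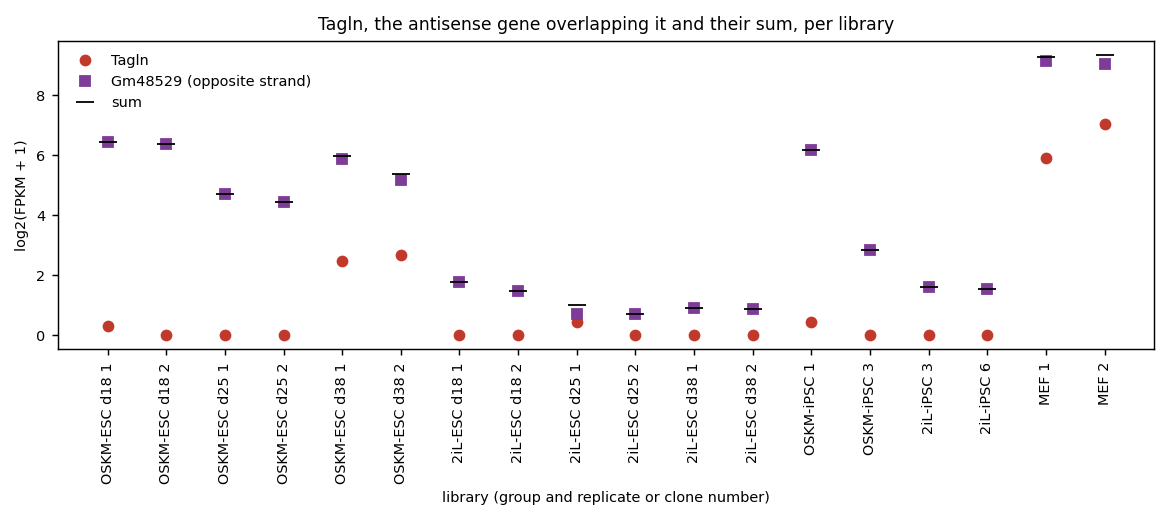
Level on the log2(FPKM + 1) scale (vertical axis) of Tagln (circles), of Gm48529 on the opposite strand (squares) and of their sum (dashes) in each library (horizontal axis). Gm48529 exceeds Tagln in all 18 libraries, and the sum separates OSKM from 2iL cultures on every day.

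S100a4 (chr3:90603771-90606045) had 3.31 and 2.76 FPKM in OSKM-ESCs at day 18, 0.454 and 1.03 at day 25, and 0.320 and 0 at day 38. In 2iL-ESCs its lowest, median and highest values were 0, 0.128 and 0.418 FPKM. Day 18 stood above all 2iL-ESC libraries and day 38 overlapped with them. At day 18 it was higher in OSKM-ESCs by 1.65 (SE 0.17, adjusted p = 0.00056), and the days differed within OSKM-ESCs (adjusted p = 0.0031). At day 25 the difference of 0.64 (SE 0.22) did not pass (adjusted p = 0.067), and it passed without OSKM-ESC replicate 1 (adjusted p = 0.036). Over all days it was higher by 0.81 (SE 0.22, adjusted p = 0.0084), a call lost in the single fit of 9 groups (adjusted p = 0.066). The annotated gene Gm42674 shares 302 bases with S100a4 on the same strand and was listed at 0 in every group.

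**Figure D3:**
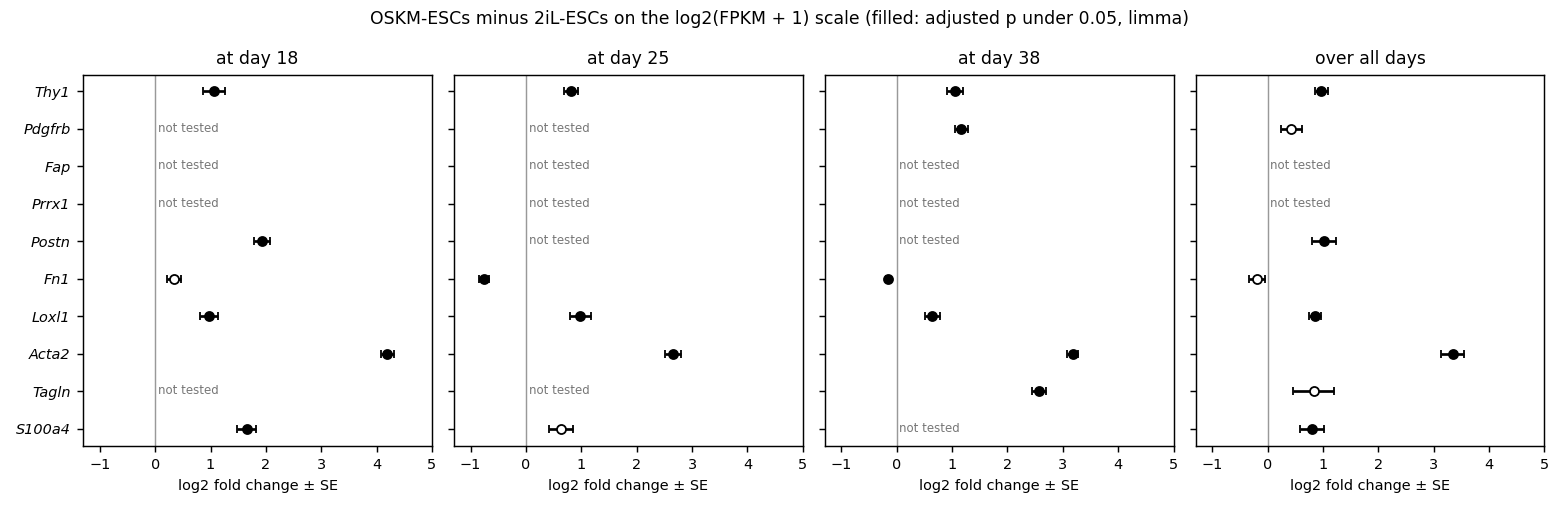
Difference OSKM-ESCs minus 2iL-ESCs on the log2(FPKM + 1) scale (horizontal axis, bars are standard errors) for each gene (vertical axis) at each day and over all days, with filled points for an adjusted p under 0.05. Acta2 has the largest difference in each panel, and Fn1 changes side between day 18 and day 25.

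Over all days, 8 of the 10 members were tested, 5 were higher in OSKM-ESCs (Thy1, Postn, Acta2, S100a4 and Loxl1), none was lower and 3 did not pass (Fn1, Pdgfrb and Tagln). Of all 14016 genes tested 29.5% were higher and 24.4% lower, and the median difference was 0.85 for the tested members and 0.03 for all genes. Postn, Pdgfrb, Tagln, S100a4 and Loxl1 passed the FPKM minimum only through OSKM-ESCs, so the count is a description and no support for a direction. The 6 OSKM-ESC libraries lay above the 6 2iL-ESC libraries for 5 of the 10 members (Thy1, Prrx1, Postn, Acta2 and Loxl1), against 14.6% of all genes tested. Prrx1 was not among the genes tested, and Postn and Loxl1 passed the minimum only through OSKM-ESCs, so this count is a description as well. At day 18, 5 of 6 tested members were higher, against 25.7% of genes, and none was lower, against 17.7%. At day 25, 3 of 5 were higher (Thy1, Acta2 and Loxl1), against 20.7%, and Fn1 was lower, against 25.3%. At day 38, 5 of 6 were higher (Thy1, Pdgfrb, Tagln, Acta2 and Loxl1), against 34.6%, and Fn1 was lower, against 25.2%. Among the members tested at days 18, 25 and 38, 3, 3 and 4 passed the FPKM minimum only through OSKM-ESCs, so these counts are descriptions as well. Within OSKM-ESCs, 6 of 8 tested members differed between days, against 38.6% of genes. The difference between media varied with day for the same 6 of 8 members, against 37.9% (Postn, Fn1, Pdgfrb, Tagln, Acta2 and S100a4). Among ESCs, Postn exceeded the FPKM minimum only in OSKM-ESCs of day 18, and Pdgfrb and Tagln only in those of day 38. A difference between days is thus partly built into their being tested, and these counts are descriptions too.

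OSKM-iPSC clone 1 carried every member above 0, and clone 3 had 4 of them listed at 0. Acta2 had 80.4 FPKM in clone 1 and 0.709 in clone 3, against 1.43 and 1.23 in the 2iL-iPSC clones. Postn had 6.10 and 0.046 FPKM in clones 1 and 3, against 0.015 and 0.042. S100a4 had 6.54 FPKM in clone 1 and was listed at 0 in clone 3 and in both 2iL-iPSC clones. In these genes clone 3 was close to or below the 2iL-iPSCs, while clone 1 was above the OSKM-ESCs of day 18.

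Prrx1 had 1.03 FPKM in clone 1 and was listed at 0 in the other 3 clones. Pdgfrb had 1.63 FPKM in clone 1 and 0.058 in clone 3, against 0.373 and 0.281 in 2iL-iPSCs. Clone 3 was thus below both 2iL-iPSC clones in Pdgfrb. Fn1 had 187 FPKM in clone 1 and 80.9 in clone 3, against 101 and 113 in 2iL-iPSCs, which lay between them. Thy1 had 3.72 FPKM in clone 1 and 2.76 in clone 3, against 2.10 and 1.17. Loxl1 had 4.32 and 1.18 FPKM, against 0.110 and 0.153. Both OSKM-iPSC clones thus exceeded both 2iL-iPSC clones in Thy1, Loxl1 and, narrowly, Postn, which are 3 of 10 members, against 37.2% of the genes tested. Tagln had 0.362 FPKM in clone 1 and was listed at 0 in the others, and its sum with Gm48529 was 71.5 and 6.18 FPKM in clones 1 and 3 against 2.03 and 1.90.

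With clones of 1 group this far apart, the fit of 2 against 2 called none of 8 tested members, against 5% of 13653 genes higher and 2.96% lower, and Loxl1 was the only member with an unadjusted p under 0.05 (adjusted p = 0.097). The interval of the Acta2 difference, 2 standard errors to each side of 2.34, ran from -1.03 to 5.71. Without clone 3 the difference of Acta2 was 5.13. Without clone 1 it was -0.44, and that of Fn1 was -0.40. Each of these fits left a lone OSKM-iPSC clone, so only effect sizes are given. Prrx1, Postn, Pdgfrb, S100a4 and Loxl1 passed the FPKM minimum only through OSKM-iPSCs. A single fit of all 9 groups called Thy1 and Loxl1 (adjusted p = 0.014 and 0.00090), where 27.8% of all genes were higher, so that 2 of 8 members was close to the share over all genes. Against the 6 OSKM-ESC libraries, none of 9 tested members was called in OSKM-iPSCs, also without either clone, none had an unadjusted p under 0.05, and 1.27% of 13736 genes were higher and 0.612% lower. None of the 3 members tested between 2iL-iPSCs and 2iL-ESCs (Thy1, Fn1 and Acta2) passed, against 1.62% of 13147 genes higher and 1.79% lower, with Acta2 at an unadjusted p under 0.05 (adjusted p = 0.23).

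**Figure D4:**
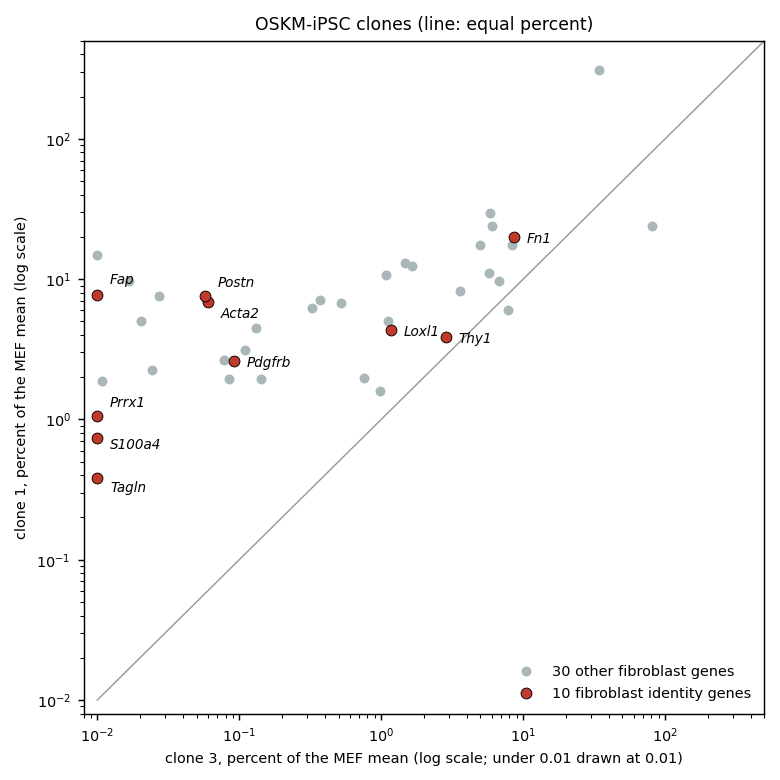
Percent of the MEF mean in OSKM-iPSC clone 1 (vertical axis) against clone 3 (horizontal axis), both on log scales, for the 10 members and for 30 other fibroblast genes, with values near 0 drawn at the lower edge and a line at equal percent. All 10 members and 28 of the 30 other genes lie above the line.

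The percents of the MEF mean were unequal within every OSKM library. In clone 1 they ran from 0.384% for Tagln read alone and 0.734% for S100a4 to 19.9% for Fn1, with a median of 4.08%. Between these lay Prrx1 at 1.05%, Pdgfrb at 2.59%, Thy1 at 3.85%, Loxl1 at 4.31%, Acta2 at 6.86%, Postn at 7.59% and Fap at 7.75%. The sum of Tagln and Gm48529 stood at 11.3% of its MEF mean in this clone. Leaving out Fn1, which pluripotent cells express, and Tagln, which is uncertain, the highest of 8 members was 10.6-fold the lowest. That highest member was Fap, near the detection limit at 0.263 FPKM with a mean coverage of 0.73, and Postn at 7.59% was next. The MEF libraries differed by at most 1.19-fold for the same 8. This was measured at MEF levels and does not give the spread at the low levels of a single clone. Subtracting the mean of the 2iL-iPSCs from both sides left S100a4 at 0.734%, Thy1 at 2.20%, Postn at 7.56% and Fn1 at 9.58%. Clone 3 had a median of 0.059%, with Fn1 at 8.62%, Thy1 at 2.86% and Loxl1 at 1.18%, and Postn, Acta2 and Pdgfrb under 0.1%.

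In OSKM-ESCs at day 18, Postn was at 5.16% and 4.45% of the MEF mean, Thy1 at 4.35% and 5.601%, and Acta2 at 3.27% and 3.14%. Lower percents belonged to Loxl1 with 1.22% and 1.59%, Pdgfrb with 0.930% and 1.01%, Prrx1 with 0.649% and 0.777%, and S100a4 with 0.372% and 0.310%. The order of these 7 genes was the same in both cultures apart from Postn and Thy1, which changed places. From day 18 to day 25 the means fell unequally, 6.01-fold for Acta2, 4.42-fold for Postn, 4.11-fold for S100a4, 1.96-fold for Prrx1 and 1.36-fold for Thy1, while Loxl1 was 0.755 times and Fn1 0.538 times as high at day 18 as at day 25. At day 38 the highest percents after Fn1 were those of Tagln read alone with 4.84% and 5.65%, Thy1 with 5.15% and 4.30% and Pdgfrb with 2.86% and 3.15%. The sum of Tagln and Gm48529 stood at 13.7% and 12.8% at day 18 and at 9.80% and 6.33% at day 38. At that day Acta2 stood at 0.937% and 0.862% and S100a4 at 0.036% and 0%.

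Other genes of MEF cells served as a scale for these percents. The scale was 62 genes with a mean FPKM over 20 in MEF cells and of 0.05 or less in the 2iL libraries, chosen without any OSKM library. Their median percent was 0.946% and 0.846% at day 18, 0.321% and 0.333% at day 25, 0.354% and 0.352% at day 38, 2.11% in clone 1 and 0.002% in clone 3. The percents of these genes were unequal as well, with quartiles of 0.990% and 4.05% in clone 1 and of 0.408% and 2.01% in the first culture of day 18. In clone 1, Fap, Postn, Acta2, Loxl1 and Fn1 lay above the upper quartile and Thy1, Pdgfrb and Prrx1 between the quartiles. S100a4 and Tagln read alone lay below the lower one. Among the 6 OSKM-ESC libraries, 4 or 5 of the 10 members lay above the upper quartile and 0 to 3 below the lower one. In replicate 2 of day 25 the lower quartile was 0, so no member could lie below it. Fn1 and Thy1 were above the upper quartile in all 6. Prrx1 was between the quartiles in all 6 and in clone 1. In clone 3 it was listed at 0, where the lower quartile was 0 as well. Of the 10 members only Prrx1 and Tagln themselves met the limits of the scale.

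**Figure D5:**
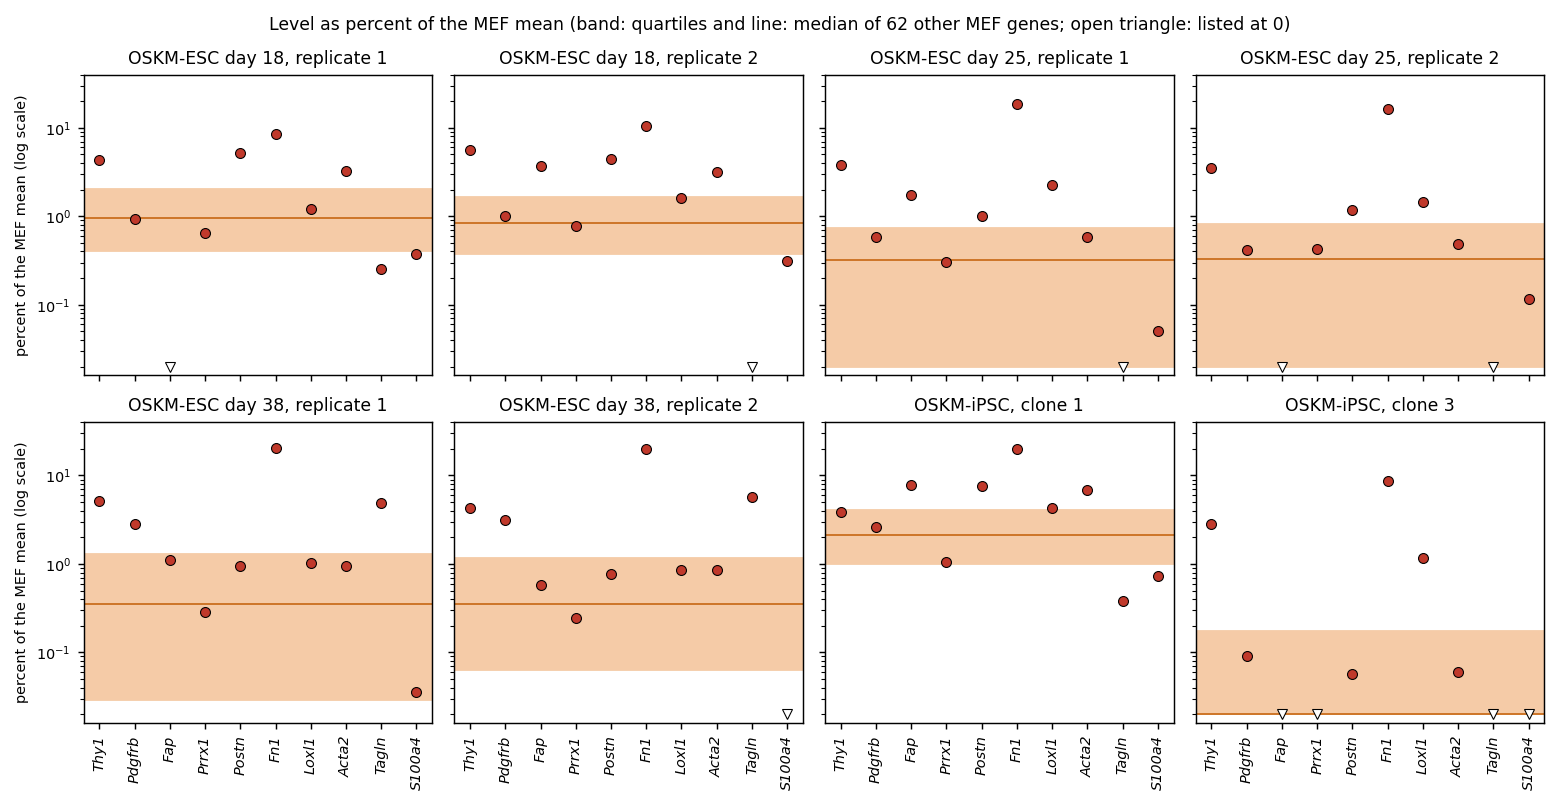
Level of each member as percent of the MEF mean (vertical axis, log scale) in the 8 OSKM libraries, with the quartiles (band) and the median (line) of 62 other MEF genes and open triangles for values listed at 0 and band limits below the axis drawn at its lower edge. Points spread over more than a factor of 10 within each library, and S100a4 lies below Acta2 in each of them.

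Ratios between members restate these percents on the FPKM scale, which is per length of transcript. The members used here were not equally specific to MEF cells. Over all 2iL libraries the mean was 0.221% of the MEF mean for Postn and 0.061% for Acta2. It was 0.013% for S100a4 and 0.0088% for Prrx1. Acta2 was 14.2 and 15.0 times Postn in the MEF libraries, 13.2 times in clone 1, 9.26 and 10.3 times at day 18, 8.49 and 6.03 times at day 25 and 14.3 and 16.5 times at day 38. S100a4 was 0.768 and 0.753 times Acta2 in the MEF libraries, and 0.081 times in clone 1, 0.086 and 0.075 times at day 18, 0.067 and 0.18 times at day 25, and 0.029 and 0 times at day 38. Prrx1 was 1.18 and 1.26 times Postn in MEF cells and 0.169 times in clone 1. Acta2 and Postn were thus present in clone 1 in nearly the proportion of the MEF libraries, while S100a4 and Prrx1 were present in smaller proportion. From day 18 to clone 1, 8 of the 10 members were 1.48 to 3.07 times as high, Fap 4.15 times and Thy1 0.774 times, beside a ratio of 2.35 for the median of the 62 scale genes. These 8 include Tagln read alone. Its sum with Gm48529 was lower in clone 1, at 71.5 FPKM against a day 18 mean of 84.0 FPKM. The Fap ratio rests on 0 and 0.127 FPKM at day 18. Whether feeder cells, incompletely reprogrammed cells or the pluripotent cells themselves gave these transcripts was not tested.

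Markers of other cell types moved with some of these results. Krt8, a keratin of simple epithelia, was 195 and 179 FPKM at day 18, 28.8 in both cultures of day 25, 41.3 and 42.1 at day 38, 339 in clone 1, 91.3 in clone 3 and 3.33 and 2.83 in MEF cells. Krt8 was thus highest in the same libraries as Acta2, Postn and S100a4, although MEF cells hardly expressed it. Krt18 of the same list went with it, at 115 FPKM in both cultures of day 18 and 16.9 to 17.4 at day 25, whereas Epcam (102 to 119 FPKM at day 18, 143 to 152 at day 25) and Cdh1 (121 to 149, then 168 to 172) were higher at day 25. The summed level of the 8 epithelial genes was 789 to 808 FPKM at day 18, 505 to 506 at day 25, 353 to 359 at day 38, 1115 in clone 1, 536 in clone 3, and 175 to 358 in 2iL-ESCs. The summed level of 7 mesoderm genes was 218 to 221 FPKM in OSKM-ESCs at day 38, 38.4 to 54.0 at day 18, 17.2 to 17.8 at day 25 and 6.24 to 9.31 in 2iL-ESCs, and T (brachyury) alone had 194 and 198 FPKM at day 38. This was the day on which Pdgfrb was highest, and Tagln read alone, but not the sum of Tagln and Gm48529, whose mean was 84.0 FPKM at day 18 and 51.1 at day 38, while Hand1 of that list was listed at 0 and Foxf1 reached 0.23 FPKM. The summed level of 8 endoderm genes was 10.3 to 12.1 FPKM at day 38, 9.69 in clone 1, 2.14 in clone 3 and 77.1 to 80.6 in MEF cells, the highest of all groups. The part of these cells in the levels of the members was not tested.

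Related genes were taken from lists fixed with earlier results of these data known. Of 30 other fibroblast genes, 26 were tested between OSKM-ESCs and 2iL-ESCs over all days, 22 were higher and 3 lower (Eng, Vim and Timp1), with a median difference of 1.11 against 0.03 for all genes. Over all genes tested 29.5% were higher and 24.4% lower. Several of the 26, such as Col3a1, Dcn and Cd44, exceeded the FPKM minimum only in OSKM-ESCs. So did Thbs1 and Bgn, with at most 0.479 and 0.871 FPKM in 2iL-ESCs, and Cnn1 and Fbln2 of the lists below. The counts of these lists between OSKM-ESCs and 2iL-ESCs are therefore descriptions. S100a6, a relative of S100a4, was higher by 3.40 (SE 0.22, adjusted p = 1.39e-07), the matricellular protein Thbs1 by 2.60 (SE 0.12, adjusted p = 9.30e-09), the proteoglycan Bgn by 1.95 (SE 0.19, adjusted p = 4.92e-06) and the gelatinase Mmp2 by 1.90 (SE 0.15, adjusted p = 9.20e-07). Of 24 contractile genes, 20 were tested, 12 were higher and 1 lower (Cnn3). Zyx, of focal adhesions, was higher by 3.03 (SE 0.17), the myosin light chain Myl9 by 2.72 (SE 0.15), the tropomyosin Tpm1 by 2.19 (SE 0.13) and calponin Cnn1 by 2.11 (SE 0.12). Myl9 and Cnn1 were close to level across the days of OSKM-ESCs, with 6.69 to 10.1 FPKM and 3.29 to 5.88 FPKM, where the Acta2 mean differed 6.01-fold between days 18 and 25.

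Of 27 matrix genes and their partners, 22 were tested and 15 were higher (against 29.5% of all genes), while Itga5 and Fbln1 were lower. The procollagen protease Bmp1 was higher by 2.13 (SE 0.13), Ccn1 by 1.85 (SE 0.14), Fbln2 by 1.70 (SE 0.15) and Tgfbi by 1.30 (SE 0.16). Of 21 genes related to Pdgfrb, Fap and S100a4, 15 were tested, 6 were higher and 4 lower, with a median difference of 0.05, near the shares and the median over all genes. Among them S100a6 was higher by 3.40 and the Fap relative Dpp4, the ligand Pdgfa and S100a13 were lower, with log2 fold changes of -1.82 (SE 0.10), -1.55 (SE 0.12) and -1.40 (SE 0.33). At day 38, when the receptor Pdgfrb was higher, its ligand Pdgfa was lower (log2 fold change -1.19, SE 0.06, adjusted p = 6.70e-05). In OSKM-iPSCs against 2iL-iPSCs the calls in these lists were 2 of 26 tested fibroblast genes higher (Serpinf1 by 2.86 and Lgals1 by 2.21), 2 of 22 contractile genes higher (Zyx by 2.68 and Srf by 1.01), none of 25 matrix genes, and Dpp4 (-2.29) and Pdgfa (-2.05) lower among 15, beside 5% of all genes higher and 2.96% lower. Serpinf1 had 15.3 and 7.97 FPKM in clones 1 and 3 against 0.670 and 0.660 in 2iL-iPSCs, Lgals1 296 and 141 against 40.5 and 46.3, and Zyx 38.9 and 20.6 against 4.85 and 2.61. Both clones were on the same side of the 2iL-iPSCs in each of them. The same held for Srf, with 26.7 and 31.5 FPKM against 13.1 and 14.8, for Dpp4, with 0.920 and 2.60 against 13.3 and 10.6, and for Pdgfa, with 13.7 and 12.5 against 58.0 and 56.8. These calls were lost, with those of all genes, without either 2iL-iPSC clone and with no filter, where 1917 of 13387, 1880 of 13493 and 5014 of 25331 genes had an unadjusted p under 0.05. In clone 1 the 30 other fibroblast genes had a median of 7.31% of the MEF mean and in clone 3 of 0.873%. Col1a1 was at 4.99% and 0.0203%, Col1a2 at 7.55% and 0.0273% and Col3a1 at 9.71% and 0.0166% in clones 1 and 3, so the fibrillar collagens stood near Acta2 and Postn in clone 1.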

How the data were processed

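RNA-Seq of 18 libraries was analysed, with FPKM as the unit. Per the labels and methods, the authors isolated poly(A) RNA, made unstranded libraries, aligned reads to GRCm38 with STAR 2.7.1a and ran StringTie 2.0 (Cuffdiff 2.2.1 is named as well). The deposited FPKM are fragments per kilobase and per mapped fragments of the library. The deposited coverage is a signal, the mean read depth per base of a gene, and served only as a guide to low values. The deposited TPM, a rescaling of FPKM by the authors, was usable in 16 libraries and recomputed from FPKM in 2, and served as an alternative. Deposited and recomputed TPM differed by at most 0.0026. U2surp and St13, with a failed value, were left out, and repeated entries of 11 gene identifiers were added up. The FPKM of low genes cannot be turned into counts. The depth is therefore unknown, and counting intervals are not given. Of 160 values of the members outside MEF cells, 32 were at 0 and 33 above 0 had a mean coverage under 1.

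limma 3.58.1 in R 4.3.3 (lmFit, eBayes with trend) modelled log2(FPKM + 1), keeping a gene if any library of the comparison exceeded an FPKM of 1, adding day as a covariate where the days were joined, and Benjamini-Hochberg adjustment over all genes tested at 0.05. Fold changes on this scale understate the change of low genes. F tests compared the days within OSKM-ESCs and the media between days. Exact 2-sided permutation tests used all 924 splits of 6 against 6, and 2 against 2 cannot go below 0.333. Summaries used Python 3.11.15, numpy 2.4.6, pandas 2.3.3 and scipy 1.17.1, and positions the GENCODE annotation with the coordinates of the files. The procedure was tested on simulated data. All 10 members are named in every comparison, and from each list up to 4 genes past the threshold with the largest change. The members and lists were chosen with earlier results of these data known. Alternatives were a pseudocount of 0.1, other filters, TPM, quantile normalization, median-ratio scaling, a fit without trend, 1 fit of all 9 groups, a replicate block, each replicate left out and other limits for the MEF scale. The sum of Tagln and Gm48529 was added after the data were seen. Neither labels nor text pair same-numbered cultures, and no batch or date is given. No UMI or strand information was used. A result of the matrix list is not reported here.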

Additional observations from a re-analysis of the deposited data

Results flagged for a closer look

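In 2iL-ESCs of all days, 1 library lay far above the other 5 for 2 of the 10 members, out of 20 sets of 6 libraries examined. Prrx1 was 0.042 FPKM in replicate 2 of day 18, and Tagln was 0.360 FPKM in replicate 1 of day 25 with the other 5 libraries at 0. No chance rate is given, because 5 of the 6 Tagln values and 3 of the 6 Prrx1 values were 0. Both flagged values belong to genes at the limit of detection.

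The difference between OSKM-ESCs and 2iL-ESCs varied with the day for 6 of 8 tested members, by an F test of the interaction in limma with Benjamini-Hochberg adjustment. The adjusted p was 0.00025 for Postn, 0.00095 for Fn1, 0.00032 for Pdgfrb, 5.41e-05 for Tagln, 0.00018 for Acta2 and 0.0073 for S100a4. Across all genes tested 37.9% did so. Postn, Pdgfrb, Tagln and S100a4 passed the FPKM minimum only through OSKM-ESCs, so the count of members is a description. For Tagln summed with Gm48529 the adjusted p was 0.019.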

How the results depend on the processing

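Of 310 counts and medians recomputed under other settings, 288 stayed close to their value (counts within 1.5 times, medians within 1 SD between replicates) and 22 did not. At day 25 the members higher in OSKM-ESCs numbered 5 with no filter and 1 to 4 with a replicate left out, 1 being without 2iL-ESC replicate 2, against 3. The lower call of Fn1 at day 38 was lost, with a count of 0, under quantile normalization, TPM, limma without trend and the fit of all 9 groups, and the count was 0 or 1 with a replicate left out. In OSKM-iPSCs against 2iL-iPSCs the members higher were 2 in the fit of 9 groups, against 0. The count also moved without clone 3, a fit that leaves 1 OSKM-iPSC clone. Against MEF cells the members lower in OSKM-iPSCs were 0 to 10, 0 being without either MEF library. The median percent of the MEF mean over the members was 2.84% at day 18 and 1.10% at day 25 with Tagln and Gm48529 summed, against 1.72% and 0.624%, and at day 38 0.772% with median-ratio scaling, against 0.964%. The median of the MEF scale genes at days 18, 25 and 38 was 0.896%, 0.327% and 0.353%. It was 0.768%, 0.219% and 0.191% for genes over 50 FPKM in MEF cells (22 genes), and 0.710%, 0.194% and 0.288% with a mean of 0.02 or less in 2iL libraries (42 genes). None of the differences that changed sign had passed the threshold in the main fit. For OSKM-iPSCs against OSKM-ESCs these were Prrx1 (0.00), with -0.59 for a pseudocount of 0.1, -0.0056 for median-ratio scaling, -0.083 for quantile normalization, -0.094 for TPM and -0.040 to 0.51 with a library left out, and Postn (0.13), with -0.60 for the pseudocount, -0.062 for TPM and -1.25 to 1.51. With a library left out S100a4 ran from -0.997 to 1.92, Loxl1 from -0.12 to 1.17, Fn1 from -0.79 to 0.40, Pdgfrb from -0.79 to 0.53 and Acta2 from -3.11 to 2.46. Against 2iL-iPSCs, Acta2 ran from -0.44 to 5.13 and Fn1 from -0.40 to 0.80, and Thy1 in 2iL-iPSCs against 2iL-ESCs from -0.30 to 0.21. The cause of these changes was not tested, beyond the distance between clones 1 and 3. Same-numbered cultures of a day were weakly correlated in their deviations over 14016 genes (r = 0.13, 0.090 and 0.012 at days 18, 25 and 38) and share only a number. A replicate block left 5 members higher over all days and gave 6, 4 and 5 higher at days 18, 25 and 38, adding Fn1 at day 18 (adjusted p = 0.028) and S100a4 at day 25 (adjusted p = 0.030) with limma. Low coverage limits Fap, Prrx1, Tagln and S100a4 outside MEF cells.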

Other observations

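The 5 genes whose log2(FPKM + 1) followed the mean of the 10 members most closely over the 16 libraries other than MEF were Emp1, F5, Pla2g7, Cdh11 and Pmp22, with Pearson's r of 0.99, 0.99, 0.98, 0.98 and 0.98 among 14621 genes. These libraries share a line or an origin, and clone 1 weighs on the correlation, so it is a description. Emp1, an epithelial membrane protein gene, had 72.9 FPKM in clone 1, 4.66 in clone 3 and 372 in MEF cells. Cdh11, a mesenchymal cadherin, had 2.05 FPKM in clone 1, 0.022 in clone 3 and 90.9 in MEF cells. Pla2g7, a phospholipase, had 6.89 FPKM in clone 1 and was listed at 0 in clone 3, with 5.34 in MEF cells. Clone 1 thus exceeded the MEF level of Pla2g7, and it stood at a few percent of that of Cdh11. F5, coagulation factor V, had 1.26 FPKM in clone 1 and 1.27 in MEF cells.

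Among 30 other fibroblast genes, Nt5e had 10.99 FPKM in clone 1, which was 308% of the MEF mean, and Eng was lower in clone 1 (3.54 FPKM) than in clone 3 (11.9 FPKM), against the direction of 28 of the 30.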
